A study of Mus musculus with 19 samples.

Results

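The genes described here encode the proteins of the cytosolic ribosome, and they were followed in extensor digitorum longus (EDL), a fast-twitch muscle of the lower leg, of HSALR and wild-type mice. Members were taken by symbol, Rpl or Rps followed by a number with or without a letter, together with Rplp0, Rplp1, Rplp2 and Rpsa, and each gene was read through its brightest probe set among those that carry 1 symbol. The array named 46 such genes out of 18193, 24 of the large subunit and 22 of the small subunit, and 43 of them were bright enough to be tested. The 3 that were not are Rpl39l, Rps16 and Rps4l.

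The comparison was between 9 wild-type samples and 10 HSALR samples, all FVB mice of 19 weeks, each measured on 1 Affymetrix array. HSALR samples came from transgenic line 20 b. In HSALR mice an inserted human skeletal actin gene, active in skeletal muscle, carries a long CTG repeat, and the mice are used as a model of myotonic dystrophy, in which RNA with expanded CUG repeats binds Mbnl splicing factors. A single transgenic line was compared, so an effect of the repeat cannot be told apart from an effect of the site where this transgene sits. The labels number the samples but do not say that each is a separate animal, so the p-values measure the spread between these samples. RNA came from whole muscle, in which fewer cells of a type and less RNA per cell cannot be told apart.

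A ribosome joins a small subunit, which reads the messenger RNA, to a large subunit, which forms the peptide bond and holds the tunnel through which the new chain leaves. Ribosomal proteins are made in near-equal amounts, and cells set that supply largely at the level of translation. Most of their messenger RNAs begin with a run of pyrimidines, the 5′ terminal oligopyrimidine motif, through which the mTOR pathway and the protein Larp1 control whether they are translated. In skeletal muscle, growth after loading is accompanied by new ribosomes, and the adult fibre holds a muscle-specific variant of the large subunit protein Rpl3, called Rpl3l.

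The pyrimidine run was looked for at the start sites, which the choice by symbol did not use. Start-site sequence was found in the RefSeq promoter table (GRCm38.p6) for 40 of the 46 genes. Below are 60 bases around the first listed start, 40 before it and 20 from it, for the 3 genes that passed the test as deposited and for the muscle variant Rpl3l. Capitals mark the longest run of C and T in the 60 bases.
Rps19: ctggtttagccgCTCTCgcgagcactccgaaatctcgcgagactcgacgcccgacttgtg
Rpl13a: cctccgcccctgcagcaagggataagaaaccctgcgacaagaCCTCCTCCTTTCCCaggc
Rpl35: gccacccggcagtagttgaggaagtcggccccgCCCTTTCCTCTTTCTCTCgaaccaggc
Rpl3l: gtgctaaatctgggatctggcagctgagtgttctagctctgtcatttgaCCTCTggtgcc

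The stretch of Rps19 lies at chr7:24884552-24884611 on the plus strand and is taken from the first of 3 listed starts. Rpl13a was read at chr7:45128726-45128785 and Rpl35 at chr2:39005112-39005171, both on the minus strand. Rpl3l was read at chr17:24727786-24727845 on the plus strand, from the first of 2 listed starts. The longest run measured 18 bases in Rpl35 and 14 in Rpl13a, and it was 5 bases long in Rps19 and in Rpl3l. The run of Rpl13a begins at base 3 of the transcript as listed, and that of Rpl35 spans the listed start, whereas neither Rps19 at this start nor Rpl3l has a long run.

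A run of at least 8 C or T between 20 bases before and 30 bases after the start was present on the transcribed strand in 22 of the 40 genes (55%), against 21.5% of the 27025 genes in the table. The same run on the opposite strand was present in 3 of the 40 (7.5%), against 24.7% of all genes. In the whole table entry, which runs from 250 bases before to 50 after the start, the ETS factor core CCGGAAGT (ACTTCCGG on the other strand) occurred in 10 of the 40 (25%) and in 4.31% of all genes. The YY1 core AAGATGGC (GCCATCTT on the other strand) occurred in 3 of the 40 (7.5%) and in 3.19% of all genes. The 3 motifs do not contain one another, and a match describes letters only.

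Before the values, some features of the samples bear on all of them. The 10 muscle fibre markers examined (among them Acta1, Ckm and Myh4) were all above the filter. None was called as deposited, with 1 (Actn3) at an unadjusted p under 0.05 in limma, but Actn3 and Atp2a1 fell after quantile normalization, where the mean of the 10 lay below the wild-type range in 8 of 10 HSALR samples. HSALR replicates 9 and 10 stood apart. Their Spearman correlation with each other was 0.978, while no other sample reached more than 0.969 with any sample. Of 17 macrophage and monocyte markers, 15 were bright enough to test and none was lower in HSALR. Cd68, Lgals3 and Mpeg1 rose as deposited, and Ctss rose as well after quantile normalization. Cd68 and Lgals3 kept their calls as deposited without replicates 9 and 10. The summed signal of all 17 was 5190 to 8687 in wild type, 4491 to 12410 in HSALR replicates 1 to 8, and 25850 and 29207 in replicates 9 and 10. Of the 10 HSALR samples 8 lay above the wild-type range of this sum and 1 below it. The 10 fibroblast markers summed to 20729 to 36947 in wild type, to 17382 to 40021 in HSALR replicates 1 to 8, and to 69961 and 71662 in replicates 9 and 10. For this sum 3 HSALR samples lay above the wild-type range and 2 below it. Of these 10 markers Pdgfra rose. Of 3 tested adipocyte markers Adipoq and Retn rose as deposited (log2 folds of 1.58 and 0.69, limma, adjusted p = 0.0237 and 0.0146) and kept their calls without replicates 9 and 10. The mean of the 5 adipocyte markers on the array lay above the wild-type range in 8 of 10 HSALR samples after quantile normalization. Of 5 tested satellite cell and myoblast markers, Myog rose as deposited (0.85, limma, adjusted p = 0.0332) and Chrdl2 also after quantile normalization, where the mean of all 7 on the array lay above the wild-type range in 9 of 10 HSALR samples. Of the same 5 markers Myod1 and Cdh15 had folds below 0 (-0.25 and -0.03 as deposited), and neither was called. Without replicates 9 and 10 Myog lost its call as deposited (limma, adjusted p = 0.093), while Chrdl2 had one (limma, adjusted p = 0.0355). Pax7 and Myf5 were below the filter. The leukocyte marker Ptprc rose after quantile normalization (0.74), while Cd3e and Cd79a of lymphocytes were below the filter. The part of these cells in the results was not tested. Replicates 9 and 10 stand apart most, so part of the results that follow are also given without those 2 samples, as stated in each place. Unless a left-out sample is named, values rest on all 19 samples. This holds for most members that were not called and for all counts over further probe sets. The deposited arrays also differed in overall brightness: the array median, as log2(signal + 16), ran from 7.56 to 7.95 in wild type and from 7.30 to 7.96 in HSALR (exact permutation test, two-sided p = 0.523). Folds of the named genes are therefore given on the values as deposited and again after quantile normalization, which gives all arrays the same distribution.

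Ribosomal protein genes of both subunits tended to higher signal in HSALR muscle, by small amounts. As deposited, Rps19, Rpl13a and Rpl35 rose and none of the 43 fell in limma with Benjamini-Hochberg adjustment at 0.05. The count of 3 is 6.98% of the members, beside 3.11% of all 11533 genes called higher and 2.31% called lower. After quantile normalization 10 rose, which is 23.3%, beside 7.08% of all genes called higher and 8.39% called lower, and again none fell. The 10 were Rps19, Rps20, Rps7, Rps14 and Rpsa of the small subunit and Rpl13a, Rpl35, Rpl19, Rpl22 and Rpl7a of the large subunit, and the 3 called as deposited are among them. With each array only centred on its median 8 rose, beside 6.57% of all genes called higher and 6.81% called lower. The count as deposited depended on single HSALR samples, being 12 without replicate 5, 11 without replicate 7 and 6 without replicate 1. The share of all probe sets called higher was then 6.94%, 4.03% and 3.11%, against 2.86% with all samples.

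The median log2 fold of the 43 genes was 0.17 as deposited, beside 0.05 over all genes tested, and 0.11 after quantile normalization, beside -0.0037 over all genes. The fold was above 0 for 41 of the 43 as deposited, beside 60.4% of all genes, and for 40 after quantile normalization, beside 49.2% of all genes, and for 40 with centring, beside 48.9%. An unadjusted p under 0.05 with a higher value in HSALR was reached by 19 members on either scale, beside 13.8% and 14.9% of all genes, and no member reached it with a lower value, beside 7.47% and 15.9% of all genes. The subunits had medians close to one another: 0.17 for the 23 large subunit genes and 0.18 for the 20 small subunit genes as deposited, and 0.07 and 0.11 after quantile normalization. A difference between the subunits was not tested.

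**Figure D1:**
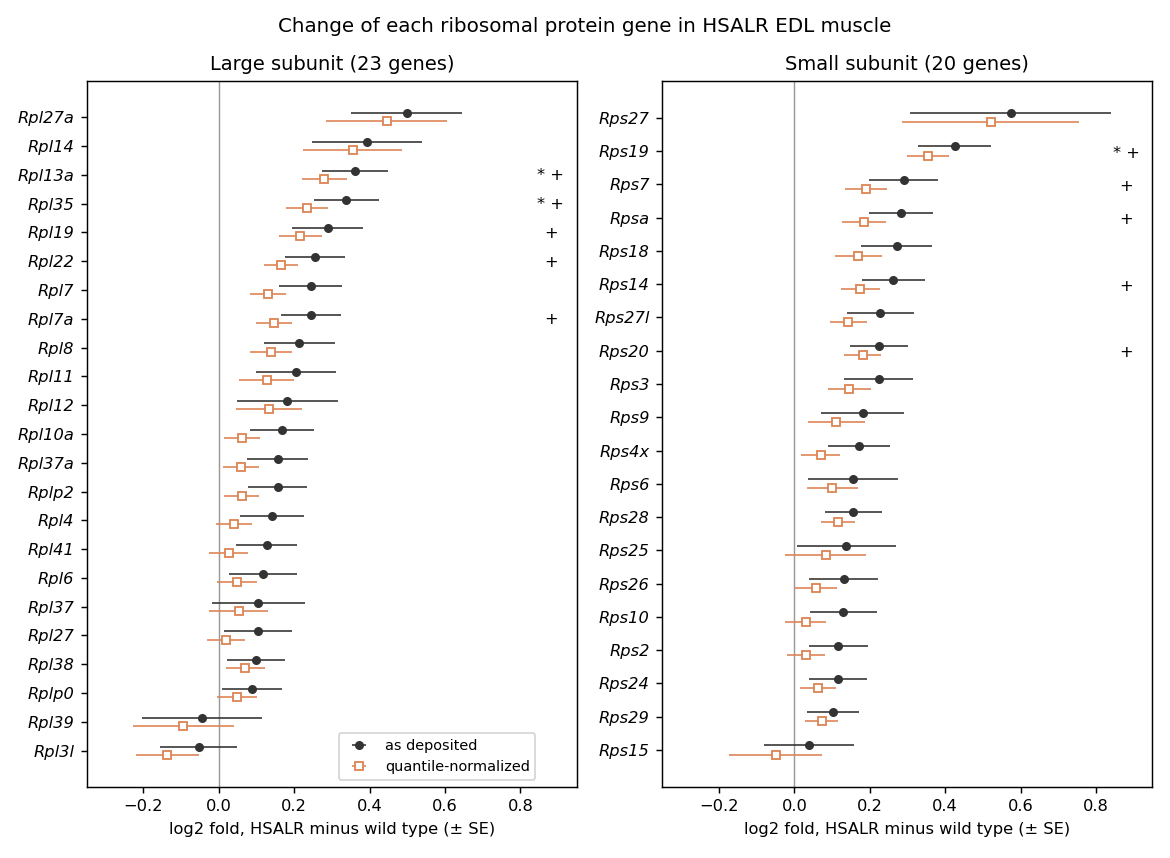
Log2 fold of HSALR over wild type for each of the 43 tested genes (horizontal axis, with the standard error from limma), as deposited (filled circles) and after quantile normalization (open squares), for the large subunit on the left and the small subunit on the right. An asterisk marks the 3 genes past an adjusted p of 0.05 as deposited and a plus sign the 10 past it after quantile normalization; 41 of the filled circles lie right of 0, and Rpl3l and Rpl39 lie left of it.

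Rps19, a small subunit protein needed for maturation of that subunit and mutated in Diamond-Blackfan anaemia, had the clearest change. Its log2 signal in wild type was 11.30 at the lowest, 11.44 at the median and 11.57 at the highest. In HSALR it was 11.56, 11.83 and 12.25. As deposited 9 of the 10 HSALR samples exceeded the wild-type range, and the other one lay just inside it. The log2 fold was 0.42 ± 0.10 (SE, limma, adjusted p = 0.0107), a 1.34-fold higher signal. After quantile normalization the groups no longer overlapped, with all 10 HSALR samples higher, and the fold was 0.35 ± 0.06 (limma, adjusted p = 0.000244). Without HSALR replicates 9 and 10 Rps19 kept its call on both scales, at 0.33 ± 0.09 as deposited (limma, adjusted p = 0.0394) and 0.30 ± 0.05 after quantile normalization (limma, adjusted p = 0.000277).

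Rpl13a belongs to the large subunit and, once released from it, also to a complex that silences translation of inflammatory messages. Its log2 signal was 12.44, 12.62 and 12.88 (lowest, median, highest) in wild type and 12.69, 12.99 and 13.31 in HSALR. The groups overlapped, with 8 HSALR samples above the wild-type range. The log2 fold was 0.36 ± 0.09 as deposited (limma, adjusted p = 0.0153) and 0.28 ± 0.06 after quantile normalization (limma, adjusted p = 0.00367). Without HSALR replicates 9 and 10 the deposited fold was 0.30 (limma, adjusted p = 0.0645), past the threshold no longer, and the quantile-normalized fold was 0.23 (limma, adjusted p = 0.00861).

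Rpl35 is a large subunit protein that sits near the exit of the peptide tunnel. Wild-type samples had log2 signals of 12.23, 12.41 and 12.68 (lowest, median, highest), and HSALR samples 12.49, 12.77 and 12.97. Here 7 HSALR samples lay above the wild-type range and 3 within it. The fold was 0.34 ± 0.09 as deposited (limma, adjusted p = 0.0218) and 0.23 ± 0.05 after quantile normalization (limma, adjusted p = 0.00685). Leaving out HSALR replicates 9 and 10 gave 0.29 (limma, adjusted p = 0.0867) and 0.21 (limma, adjusted p = 0.0192). On the values as deposited, the call of Rps19 is then the only one left among the members, beside 2.09% of all genes called higher.

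**Figure D2:**
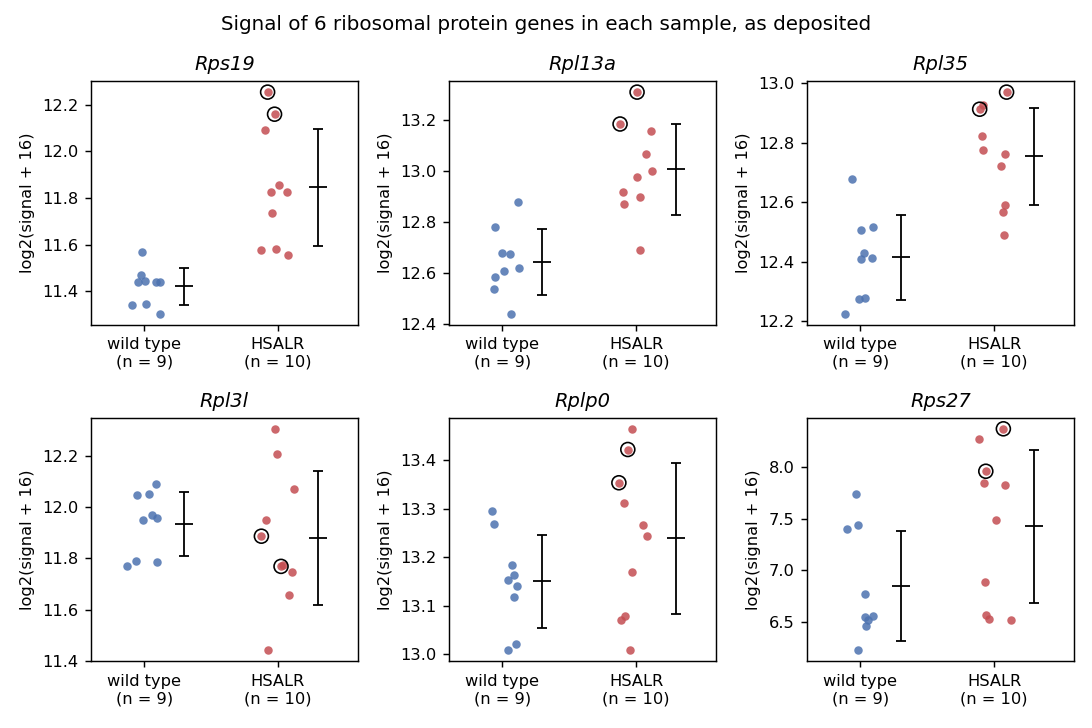
Log2(signal + 16) as deposited in each of the 9 wild-type (blue) and 10 HSALR (red) samples for Rps19, Rpl13a, Rpl35, Rpl3l, Rplp0 and Rps27; each panel has its own vertical axis, the bar beside the points gives mean ± SD, and rings mark HSALR replicates 9 and 10. Above the wild-type range lie 9 HSALR samples for Rps19, 8 for Rpl13a and 7 for Rpl35, while for Rpl3l the HSALR samples lie on both sides of it.

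The other 7 genes that rose after quantile normalization had smaller folds and missed the threshold as deposited. Among small subunit genes, Rps7, whose protein also binds Mdm2, had wild-type log2 signals of 12.28, 12.39 and 12.55 (lowest, median, highest) as deposited and HSALR signals of 12.42, 12.68 and 12.98. Its fold was 0.29 ± 0.09 as deposited (limma, adjusted p = 0.0699) and 0.19 ± 0.06 after quantile normalization (limma, adjusted p = 0.0262). Rps14, a small subunit protein whose loss marks a form of myelodysplastic syndrome, had 12.53, 12.81 and 12.94 in wild type and 12.78, 13.05 and 13.19 in HSALR. Both genes had 7 HSALR samples above the wild-type range as deposited. The fold of Rps14 was 0.26 ± 0.08 as deposited (limma, adjusted p = 0.0674) and 0.18 ± 0.05 after quantile normalization (limma, adjusted p = 0.0285).

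Rps20, in the head of the small subunit, had log2 signals of 12.80, 13.06 and 13.23 in wild type and 13.10, 13.29 and 13.41 in HSALR. The fold was 0.23 ± 0.08 as deposited (limma, adjusted p = 0.0901) and 0.18 ± 0.05 after quantile normalization (limma, adjusted p = 0.0165), with 7 and 9 HSALR samples above the wild-type range. Rpsa, a small subunit protein also known as the laminin receptor, had a wild-type median of 12.24 and highest value of 12.39, and 12.22, 12.49 and 12.74 in HSALR. Its fold was 0.28 ± 0.09 as deposited (limma, adjusted p = 0.056) and 0.18 ± 0.06 after quantile normalization (limma, adjusted p = 0.0403). Rpsa differs from the other called genes in that quantile normalization left fewer HSALR samples above the wild-type range, 4 against 8 as deposited.

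In the large subunit, Rpl19, which reaches across to the small subunit, had log2 signals of 11.73, 11.84 and 11.98 in wild type and 11.85, 12.11 and 12.52 in HSALR. Its fold was 0.29 ± 0.09 as deposited (limma, adjusted p = 0.0781) and 0.22 ± 0.06 after quantile normalization (limma, adjusted p = 0.0136). The signals of Rpl22, an RNA-binding protein needed for T cell development, were 12.28, 12.36 and 12.52 in wild type and 12.43, 12.65 and 12.85 in HSALR. As deposited, 7 HSALR samples lay above the wild-type range for Rpl19 and 6 for Rpl22, and after quantile normalization all 10 did for both. The fold of Rpl22 was 0.25 ± 0.08 as deposited (limma, adjusted p = 0.0671) and 0.17 ± 0.05 after quantile normalization (limma, adjusted p = 0.0192).

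Rpl7a, a further large subunit protein, had log2 signals of 12.56, 12.65 and 12.81 in wild type and 12.63, 12.92 and 13.13 in HSALR. Its fold was 0.24 ± 0.08 as deposited (limma, adjusted p = 0.0775) and 0.15 ± 0.05 after quantile normalization (limma, adjusted p = 0.0461). The groups were fully apart after quantile normalization for 4 of the 43 genes, Rps19, Rpl19, Rpl22 and Rpl7a, beside 0.867% of all genes. As deposited they were fully apart for 0 of the 43, beside 0.434% of all genes, and with centring for 1, beside 0.806%. With quantile normalization and without HSALR replicates 9 and 10, 6 of the 10 genes remained called, beside 5.76% of all genes. They are Rps19, Rpl13a, Rpl35, Rpl19, Rpl22 and Rps20, and for Rps7, Rps14, Rpsa and Rpl7a the adjusted p in limma was then 0.0648, 0.0644, 0.102 and 0.118.

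The largest folds, of Rps27 and Rpl27a, belonged to probe sets with a mean log2 signal under 9 and a wide spread in wild type, and did not pass the test. Rps27, a zinc-binding small subunit protein, had log2 signals of 6.23, 6.56 and 7.74 (lowest, median, highest) in wild type and 6.52, 7.66 and 8.37 in HSALR. No sample lay between 6.88 and 7.40, and 3 of 9 wild-type and 6 of 10 HSALR samples lay above that gap. The fold of 0.57 ± 0.27 had an adjusted p of 0.223 in limma, and 0.52 ± 0.23 after quantile normalization one of 0.141. Rpl27a of the large subunit had 7.99, 8.83 and 9.25 in wild type and 8.84, 9.20 and 9.40 in HSALR. Its HSALR samples lay close together, within the upper part of the wild-type range or just above it, with 3 above it. The fold was 0.50 ± 0.15 (limma, adjusted p = 0.0507), and 0.45 ± 0.16 after quantile normalization (limma, adjusted p = 0.067). Rpl27a thus lay close to the threshold as deposited. It passed with a pseudocount of 64 (limma, adjusted p = 0.0379) and missed it without HSALR replicates 9 and 10 (limma, adjusted p = 0.115).

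Rpl3l, the muscle variant of Rpl3, was the member with the lowest fold. Its log2 signal was 11.77, 11.96 and 12.09 in wild type and 11.44, 11.83 and 12.31 in HSALR. HSALR samples lay on both sides of the wild-type range, 2 above it and 4 below it. The fold was -0.05 ± 0.10 as deposited (limma, adjusted p = 0.814) and -0.14 ± 0.08 after quantile normalization (limma, adjusted p = 0.292), so no change of Rpl3l was detected. Rpl3 itself is measured here only by probe sets that carry several symbols and is not named.

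Rpl39, a small protein that lines the exit tunnel, had a fold of -0.05 ± 0.16 (limma, adjusted p = 0.902) and -0.09 ± 0.14 after quantile normalization (limma, adjusted p = 0.689), with log2 signals of 7.20 to 8.19 in wild type and 6.85 to 8.23 in HSALR. For Rps15, which lies near the decoding site, the fold was 0.04 ± 0.12 as deposited (limma, adjusted p = 0.887) and -0.05 ± 0.12 after quantile normalization (limma, adjusted p = 0.83). The wild-type samples of Rps15 ran from 11.68 to 12.34 and the HSALR samples from 11.72 to 12.70. At their brightest probe sets both genes had overlapping groups and a sign that turned under other settings. The second probe set of Rps15 had a mean log2 signal of 12.01, beside 12.08 for the brightest. Its fold was 0.27 as deposited (limma, adjusted p = 0.0959) and 0.20 after quantile normalization (limma, adjusted p = 0.0248), so the result for Rps15 depends on the probe set.

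Among the proteins of the stalk, which recruits translation factors to the large subunit, Rplp0 had log2 signals of 13.01, 13.15 and 13.30 in wild type and 13.01, 13.25 and 13.46 in HSALR. Its fold was 0.09 ± 0.08 as deposited (limma, adjusted p = 0.575) and 0.05 ± 0.05 after quantile normalization (limma, adjusted p = 0.59). Rplp2 had 12.68, 12.78 and 12.88 in wild type and 12.72, 12.93 and 13.17 in HSALR, with folds of 0.16 ± 0.08 (limma, adjusted p = 0.268) and 0.06 ± 0.05 (limma, adjusted p = 0.412). Neither stalk gene passed the test on either scale. Rps6, the small subunit protein phosphorylated by S6 kinase downstream of mTOR, had 7.92, 8.21 and 8.43 in wild type and 7.78, 8.43 and 8.73 in HSALR, and folds of 0.16 ± 0.12 (limma, adjusted p = 0.488) and 0.10 ± 0.07 after quantile normalization (limma, adjusted p = 0.343).

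The probe sets with the highest signal showed small folds. Rps29, a small zinc-binding protein of the small subunit, had a fold of 0.10 ± 0.07 (limma, adjusted p = 0.424), and Rpl38, known for a role in translating Hox messages, had 0.10 ± 0.08 (limma, adjusted p = 0.498). After quantile normalization both had 0.07 (limma, adjusted p = 0.283 for Rps29 and 0.373 for Rpl38). The 6 members with a mean log2 signal of at least 13 had folds between 0.09 and 0.23 as deposited. Over the 43 genes, mean log2 signals ran from 6.23 to 13.64, and the level of one probe set is not compared with that of another here. The 23 tested genes without a value of their own above had folds from 0.10 to 0.39 as deposited and from 0.02 to 0.36 after quantile normalization. The lowest adjusted p among those 23 was 0.0961 and 0.0537 in limma.

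The 3 members below the filter have no test. Rps16, of the small subunit, was between 4.05 and 4.39 in wild type and 4.08 and 4.33 in HSALR, a signal near 0 before 16 is added. Its probe set thus gives no measure of the gene. Rpl39l, a variant of Rpl39 best known from testis, ran from 4.17 to 5.28 in wild type and from 4.39 to 6.85 in HSALR, where 6 samples lay above the wild-type range. Rps4l was between 4.36 and 5.94 in wild type and between 4.75 and 6.43 in HSALR.

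Averaged over the 43 genes, each sample could be placed against the wild-type mean. As deposited the wild-type samples lay between -0.10 and 0.12 and the HSALR samples between -0.05 and 0.45, and 7 of the 10 HSALR samples were above the wild-type range. After quantile normalization the wild-type samples lay between -0.06 and 0.04 and the HSALR samples between 0.07 and 0.24. All 10 HSALR samples were then above all wild-type samples. On that scale HSALR replicates 9 and 10, with the highest macrophage and fibroblast signal, had the highest means, 0.23 and 0.24. Replicates 1 to 8 lay between 0.07 and 0.16, also above the wild-type range. As deposited, replicates 9 and 10 had 0.38 and 0.45, and replicates 1 to 8 ran from -0.05 to 0.44. With centring they had 0.14 and 0.15, and replicates 1 to 8 ran from 0.08 to 0.30. With centring 8 of the 10 HSALR samples were above the wild-type range. The part of macrophages and fibroblasts in these means was not tested.

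The same mean was taken over the 320 other genes of comparable brightness (mean log2 signal of 12 or more). As deposited it ran from -0.07 to 0.12 in wild type and from -0.17 to 0.24 in HSALR, with 2 HSALR samples above and 3 below the wild-type range. Their median fold as deposited was 0.01, with 54.1% above 0, beside 0.16 for the 30 ribosomal protein genes as bright, of which 30 were above 0. After quantile normalization the medians were -0.06 and 0.07. The mean of the 320 then lay between -0.0043 and 0.0042 in wild type and between -0.16 and -0.02 in HSALR. All 10 HSALR samples were below the wild-type range, so groups fully apart in a mean were not particular to the ribosomal protein genes. Quantile normalization fixes the distribution of each array, so bright genes cannot all be higher at once and the values of both sets on that scale are tied to each other. The comparison with bright genes was chosen after the data were seen.

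**Figure D3:**
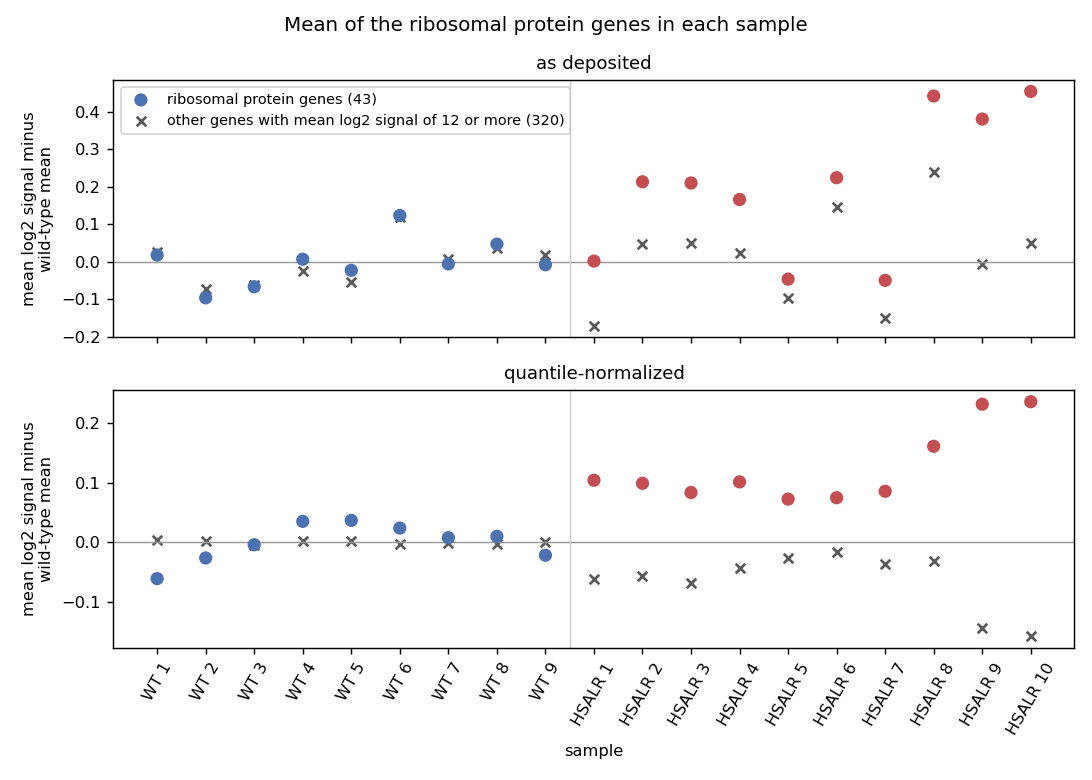
Mean log2 signal of the 43 ribosomal protein genes in each sample minus the wild-type mean (circles, blue for wild type and red for HSALR), and the same for 320 other genes with a mean log2 signal of 12 or more (crosses), as deposited above and after quantile normalization below. After quantile normalization the HSALR circles lie at 0.07 to 0.24, above all wild-type circles. The HSALR crosses, which that scaling ties to the circles, lie at -0.16 to -0.02, below all wild-type crosses.

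Without HSALR replicates 9 and 10 the median fold of the 43 genes was 0.11 as deposited, beside 0.01 over all genes, and 0.06 after quantile normalization, beside 0.01. The fold became smaller for 41 of the 43 genes as deposited and for 38 after quantile normalization. It remained above 0 for 41 and 38 genes, beside 53.7% and 52.1% of all genes. With replicates 9 and 10 included, the SD within a group was larger in HSALR than in wild type for 39 of the 43 genes as deposited (medians 0.20 and 0.11). After quantile normalization it was larger for 31 (medians 0.10 and 0.08). The array median as deposited also had a larger SD in HSALR, 0.22 against 0.12 in wild type. Smaller folds and larger SDs were not counted over all genes, so these counts cannot be called particular to the family.

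Ribosomal protein genes have many near-identical processed pseudogenes, and a probe set can read such copies too. Of the 43 probe sets used, 13 have names that mark them as specific to 1 transcript, 14 are marked as shared by transcripts of 1 gene (suffix a), and 14 and 2 have the suffixes x and s, which mark possible cross-hybridization or shared families. Of the 3 genes called as deposited, Rpl13a and Rpl35 were read by x probe sets and Rps19 by an a probe set, so the first 2 are uncertain as to the copy measured. Of the 7 called only after quantile normalization, Rpl19 and Rpsa were read by specific probe sets.

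Several genes had more than 1 probe set, which gives further readings of the same samples, not independent replicates. Among all 84 tested probe sets of the 46 genes, 8 rose as deposited (9.52%, beside 2.86% of all probe sets) and 27 after quantile normalization (32.1%, beside 6.59%), and none fell. For Rpl13a all 4 probe sets had folds above 0, from 0.27 to 0.64 as deposited, and the largest belonged to the dimmest (limma, adjusted p = 0.0155). Rpl35 had 6 probe sets, 5 with folds from 0.19 to 0.41 and a dim one at -0.02 ± 0.17. Rps19 had 1 probe set only. Rpl22 had 3, and the 2 other than the brightest had folds of 0.41 and -0.01 as deposited (limma, adjusted p = 0.157 and 0.972). After quantile normalization these were 0.35 and -0.07 (limma, adjusted p = 0.0796 and 0.662), so the rise of Rpl22 was not seen at all its probe sets.

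For Rpl27 and Rps28 the choice of probe set changed the call but not the direction. The brightest probe set of Rpl27, a large subunit gene, had a fold of 0.10 (limma, adjusted p = 0.549), but the other 2 had 0.30 and 0.35 (limma, adjusted p = 0.0659 and 0.0463). Rps28, of the small subunit, had 0.16 at its brightest probe set (limma, adjusted p = 0.243) and 0.40 at another (limma, adjusted p = 0.0102). For Rps15 both the call and the direction changed with the probe set after quantile normalization, as given above. Counting a gene as risen when any of its probe sets passed gave 5 of 43 genes as deposited, beside 4.05% of all genes, and 17 after quantile normalization, beside 9.36%.

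Whether the probe sets of a gene differed from each other in fold was tested with limma's diffSplice for the 19 members with at least 2 tested probe sets. As deposited 0 of 19 passed, beside 1.9% of all such genes, and 0 had an unadjusted p under 0.05. After quantile normalization Rpl27 passed (diffSplice, adjusted p = 0.0151), beside 7.84% of all such genes, and 7 had an unadjusted p under 0.05. Both shares are at the adjusted threshold. The share of all such genes at the unadjusted p was not counted, so the 7 cannot be set against it. One probe set of Rps10, of the small subunit, ran from 7.31 to 11.84 in wild type, a far wider range than its brightest one (12.64 to 12.78).

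**Figure D4:**
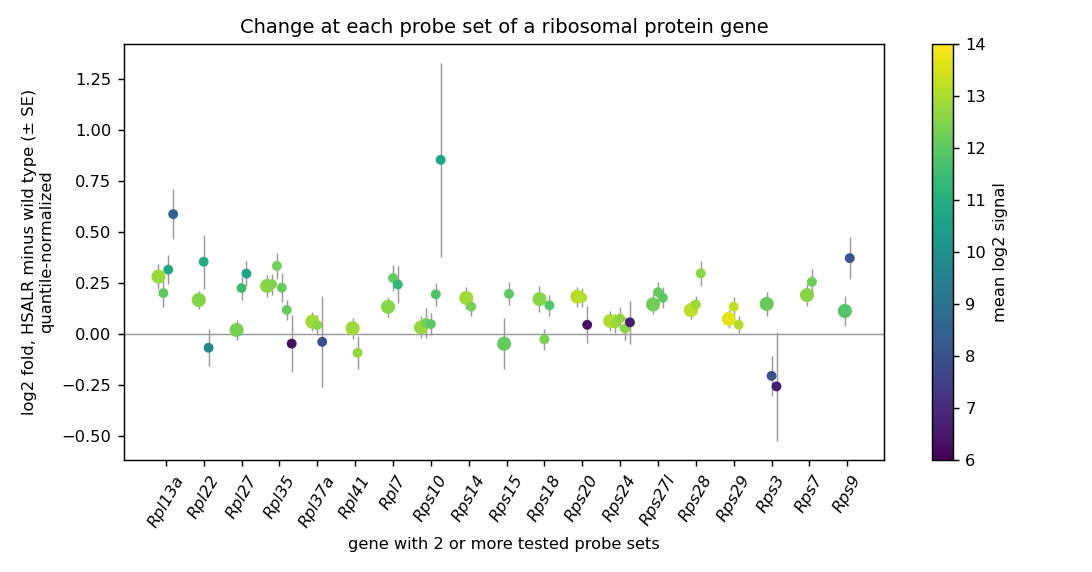
Log2 fold after quantile normalization (vertical axis, with the standard error from limma) at each tested probe set of the 19 genes with at least 2, coloured by mean log2 signal; the larger marker is the brightest probe set, used for the gene. The probe sets of Rpl13a all lie above 0, and those of Rpl27 lie from 0.02 to 0.29. Below 0 lie the dim probe sets of Rpl35, Rpl37a and Rps3, and brighter ones of Rpl22, Rpl41, Rps15 and Rps18.

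A further 110 probe sets carry a symbol of the family together with other symbols, often because copies share the sequence, and 29 ribosomal protein symbols occur only there. They were left out of the choice of members. Of the 98 that were tested, 15 rose (15.3%, beside 2.86% of all probe sets) and 1 fell as deposited, and 40 rose (40.8%, beside 6.59%) and 2 fell after quantile normalization. Their median folds were 0.21 and 0.14, and folds ran from -0.55 to 0.72 as deposited.

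Other parts of the translation machinery were counted in the same way, beside the 3.11% of all genes called higher and 2.31% called lower as deposited and the 7.08% and 8.39% after quantile normalization. Of 4 tested ribosomal proteins with symbols outside the pattern, 0 passed as deposited. In limma 3 of them (Fau, Rps3a1 and Rpl22l1) were higher at an unadjusted p under 0.05, beside 13.8% of all genes. After quantile normalization Fau, which encodes a small subunit protein fused to a ubiquitin-like one, rose by 0.20 ± 0.06 (limma, adjusted p = 0.0222). Of 18 elongation factors and other genes with a pyrimidine start, Eef1b2, an exchange factor for the elongation factor that delivers aminoacyl-tRNA, rose by 0.35 ± 0.09 as deposited (limma, adjusted p = 0.0281) and by 0.29 ± 0.06 after quantile normalization (limma, adjusted p = 0.0027). After quantile normalization Eef1b2, Npm1 and Eif3f rose, and Pabpc4, a poly(A)-binding protein, fell by 0.34 on the log2 scale (limma, adjusted p = 0.0041). The median fold of this list was 0.16 as deposited and 0.09 after quantile normalization.

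Of 35 initiation factors 1 rose as deposited, Eif1ax, which takes part in scanning for the start codon, by 0.33 ± 0.09 (limma, adjusted p = 0.0283), and by 0.27 ± 0.05 after quantile normalization (limma, adjusted p = 0.000802). After quantile normalization 3 rose and 1 fell, with a median of 0.04. Without HSALR replicates 9 and 10 neither kept its call as deposited, and Eef1b2 and Eif1ax had folds of 0.30 and 0.31 (limma, adjusted p = 0.106 and 0.0906).

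Among ribosome biogenesis genes the counts were near the shares of all genes just given. Of 53 tested, 3 rose and 1 fell as deposited, and 5 rose and 5 fell after quantile normalization, with median folds of 0.06 and 0.0049. Polr1d, a subunit shared by RNA polymerases I and III, rose by 0.60 ± 0.10 (limma, adjusted p = 0.000736) and by 0.55 ± 0.07 after quantile normalization (limma, adjusted p = 3.71e-05), with 9 of 10 HSALR samples above the wild-type range. Nhp2, a protein of the box H/ACA particles that guide pseudouridylation, rose by 0.37 ± 0.11 (limma, adjusted p = 0.0437) and by 0.31 ± 0.07 after quantile normalization (limma, adjusted p = 0.00514). Nop2, a methyltransferase acting on ribosomal RNA of the large subunit, fell by 0.52 on the log2 scale (SE 0.13, limma, adjusted p = 0.0179), and by 0.57 after quantile normalization (limma, adjusted p = 0.00173). Without HSALR replicates 9 and 10 the call of Polr1d was the only one left in this list as deposited (0.54, limma, adjusted p = 0.00355).

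Among 23 genes of the mTOR pathway and its regulators, 1 rose and 1 fell as deposited, and 2 rose and 4 fell after quantile normalization. Of all genes, 3.11% were called higher and 2.31% lower as deposited, and 7.08% and 8.39% after quantile normalization. Ddit4l, an inhibitor of mTOR signalling, had log2 signals of 11.94, 12.06 and 12.41 (lowest, median, highest) in wild type and 11.35, 11.54 and 11.90 in HSALR. All 10 HSALR samples lay below all wild-type samples. Ddit4l fell by 0.54 on the log2 scale (SE 0.09, limma, adjusted p = 0.000925), by 0.62 after quantile normalization (limma, adjusted p = 4.5e-05), and by 0.51 as deposited without HSALR replicates 9 and 10 (limma, adjusted p = 0.00475). Rps6ka3, a kinase that phosphorylates Rps6 downstream of the ERK pathway, rose by 0.44 ± 0.11 (limma, adjusted p = 0.0173) and by 0.39 ± 0.07 after quantile normalization (limma, adjusted p = 0.000462). Its call as deposited was lost without HSALR replicates 9 and 10 (0.38, limma, adjusted p = 0.065). These arrays measure messenger RNA only, so neither the phosphorylation of Rps6 nor the amount of ribosomes was measured.

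Signs of RNA quality were set beside these results. The log2 ratio of 3′ to 5′ control probe sets for actin and Gapdh differed by -0.05 between HSALR and wild type (exact permutation test, two-sided p = 0.0295, 0.147 adjusted over 5 measures of this kind). Its part in the folds of the ribosomal protein genes was not tested beyond a fit that included this ratio, in which 8 of the 43 genes rose and none fell, beside 7.57% of all probe sets called higher. The 3 control probe sets for 18S ribosomal RNA differed in their group means by -0.03 to 0.02 on the log2 scale (exact permutation test, two-sided p of 0.655 to 0.983). The HSALR samples were more uneven. At the 3′ probe set they ran from 12.33 to 13.08, beside 12.63 to 12.73 in wild type, with 5 above that range and 4 below it. At the middle probe set 2 lay above and 4 below, and at the 5′ probe set 2 above and 2 below. The 18S probe sets are array controls and give no amount of ribosomes.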

How the data were processed

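Per the labels' protocols, total RNA was labelled with biotin and hybridised to 1 array per sample. The authors deposited linear signal intensities for 45101 probe sets; the submitters' processing notes name GCOS 1.4, with algorithm and scaling not given in the sources used here. Symbols come from the platform annotation, updated through Entrez identifiers. Intensities were used as log2(value + 16), so folds of dim genes are understated. Of the probe sets, 64 controls were left out and 22519 with a mean log2 of at least 6.09 (the median) were tested, over 11533 genes. Groups were compared with limma 3.58.1 under R 4.3.3, by lmFit and eBayes, two-sided, with Benjamini-Hochberg adjustment over all tested probe sets and a threshold of 0.05; errors are standard errors. Quantile normalization was done over the tested probe sets. Arrays give no count of molecules, and their number limits the precision. The step was tested on simulated data for this comparison with 22519 probe sets: it recovered 37 of 50 changed by 1.5-fold and 45 of 50 changed by 2-fold, with 8 false calls. No smaller change was simulated. Every tested member changed by less than 1.5-fold as deposited (at most 1.49, for Rps27), so recovery at such sizes is not known. Genes were named by rule: every member called on either scale, the 3 highest and 3 lowest folds, Rpl3, Rpl3l, the P proteins, Rpsa, Rps27a and Rps6, the 3 brightest, the untested ones, and up to 3 called genes per pathway list; others named were chosen after their values were seen. Rps27a and some other family members are not analysed here. Members, lists and tests were chosen with earlier results of these data known. Alternatives covered scaling, pseudocount, filter, probe set, array weights, variance model, the 3′/5′ ratio and left-out samples. The labels do not say that sample numbers pair the groups. Promoters were read with Python 3.11.15.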

Additional observations from a re-analysis of the deposited data

Results flagged for a closer look

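In 46 groups of values (23 named genes in 2 groups each), 3 held a sample far from the others, where chance gives about 1 in 20 groups. Rpl39 was at a log2 signal of 6.85 in HSALR replicate 7, and the other 9 HSALR samples lay between 7.52 and 8.23. Rps16, which lies below the filter, was at 4.39 in wild-type replicate 1, against 4.05 to 4.16 in the other wild-type samples. It was at 4.33 in HSALR replicate 9, against 4.08 to 4.19 in the other HSALR samples.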

How the results depend on the processing

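No ribosomal protein gene fell under any setting. The number that rose, 3 of 43 as deposited, was 10 with quantile normalization, 8 with arrays centred on their median, 9 with a pseudocount of 64, 11 of 39 when only the brightest 11260 probe sets were tested, 16 with array weights, 13 with a variance model with trend and robust fit, 8 with a 3′/5′ covariate, 8 without HSALR replicates 5 and 8, and 5 when any probe set of a gene could count. It was 1 without HSALR replicates 9 and 10, and 6 with quantile normalization as well. Leaving out 1 sample at a time gave 3 to 12: 12 without HSALR replicate 5, 11 without replicate 7 and 6 without replicate 1. Rps19, Rpl13a and Rpl35 stayed called in all 19 of these fits. Beside these counts, the share of all probe sets called higher was 2.86% as deposited. It was 6.59% with quantile normalization, 6.06% with centring and 3.42% with a pseudocount of 64. For the brightest probe sets it was 5.64%, with array weights 10.1% and with the trend and robust fit 3.52%. It was 7.57% with the 3′/5′ covariate and 5.05% without HSALR replicates 5 and 8. Without replicates 9 and 10 it was 1.91%, and 5.22% with quantile normalization as well.

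With the replicate number as a block, 0 members rose in limma, with 16 higher at an unadjusted p under 0.05 (adjusted p of 0.0658 for Rps19, 0.0788 for Rpl13a and 0.103 for Rpl35) and 716 probe sets were called. At the adjusted threshold 1.82% of all probe sets were called higher. The share of all genes at the unadjusted p was not counted in this fit, so the 16 have no share beside them. The labels do not say that equal numbers pair the samples. Same-numbered samples correlated at -0.24 to 0.13, and 3 of 9 pairs exceeded 0.1. This cannot settle the question, since paired samples need not correlate. The block leaves out HSALR replicate 10, which has no partner.

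All probe sets called numbered 1140 (645 higher, 495 lower), and 3340 (1484 higher, 1856 lower) with quantile normalization, 2937 (1364 higher, 1573 lower) with centring, 2878 with array weights, 2169 with the 3′/5′ covariate, 1787 without HSALR replicates 5 and 8, 2490 without replicates 9 and 10 with quantile normalization, and 858 to 2067 without 1 sample. Rps15 turned to -0.049 with quantile normalization, -0.014 with centring, -0.012 with the 3′/5′ covariate, -0.068 with array weights and -0.062 without HSALR replicates 5 and 8, and ran from -0.028 to 0.081 without 1 sample. Rpl39 turned to 0.078 with array weights and ran from -0.118 to 0.053 without 1 sample. The difference in array median, 0.05, was -0.00081 without HSALR replicates 9 and 10, a setting chosen after seeing the data, and 0.02 to 0.10 without 1 sample. The cause of these changes was not tested. Of 259 alternative values of the named genes, 195 kept direction and side of the threshold, 53 passed it in addition, 5 fell short of it and 6 changed sign.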
